A study of Cricetulus griseus with 4 samples.

Results

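JAG1, PTCH1 and TEAD2 are the genes of the Notch, Hedgehog and Hippo pathways described here: a Notch ligand, a Hedgehog receptor and a transcription factor of the Hippo pathway. They are 3 of the 347 genes that could be named on a probe with 1 gene symbol, and each has 1 of the array's 1152 probes. They were chosen by their centred log2 ratios on these same 4 arrays, so their values are given as a description, with no test.

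The arrays compared chromosomally unstable clones with RT210B, a chromosomally stable clone of the same genetic background, in RNA labelled as Chinese hamster. Unstable mixture 1 held equal amounts of clones LS12 and 10-107-9, and unstable mixture 2 held equal amounts of clones Fe10-3 and 10-56-11. Each mixture was hybridised in channel 2 of 2 replicate arrays, with RT210B in channel 1 of all 4. Each mixture averages 2 clones, so a difference between the clones of a mixture cannot be seen, and RT210B is a single clone that every value shares. No label gives a treatment, a dose or a time. From general knowledge rather than from the labels, clones with these names come from a hamster ovary hybrid line that carries a human chromosome and was used in studies of radiation-induced instability. A table of ratios holds no level of a gene, so the cell type could not be checked against marker genes.

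Notch signalling runs between touching cells: a ligand such as Jagged1 on one cell binds a Notch receptor on the next, and the cleaved receptor enters the nucleus. In the Hedgehog pathway Patched1 holds back the transducer Smoothened until a Hedgehog ligand binds Patched1, and GLI factors then act on target genes, PTCH1 itself among them. In the Hippo pathway a kinase cascade keeps the coactivators YAP and TAZ out of the nucleus, and where they enter it they act through TEAD proteins, which bind DNA.

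Each value is a log2 ratio of one channel to the other, averaged over a probe's 2 spots and centred on the array's median probe. A value of 0 is therefore the array's middle probe, and 1 is a doubling of the ratio relative to it. Which channel is the numerator is not settled, since titles and descriptions put RT210B on different sides of the comparison and the dyes are unknown. Where a mixture has a pair of values, replicate 1 is followed by replicate 2. Signs follow the deposited columns, and no value is read as higher in the unstable clones or in RT210B. Spread also differed, with an SD over probes (log2) of 1.14 and 1.05 in mixture 1, against 0.80 and 0.47 in mixture 2. Replicate arrays correlated across probes at r = 0.694 in mixture 1 and r = 0.592 in mixture 2, where probes are not independent replicates. Signal over background is unknown, because no spot intensities were used here. The probes are annotated with human genes, and how well hamster RNA hybridised to them was not measured; Chinese hamster genes of the same symbol exist in RefSeq for all 3 genes.

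JAG1 lay on the negative side of every array, and more so in mixture 1. Its log2 ratio was -2.26 and -1.54 in mixture 1, against -0.67 and -0.98 in mixture 2. All 4 arrays were thus on one side of the middle probe, as was the case on the negative side for 19.9% of all probes. The 2 mixtures did not overlap, which held for 62.2% of all probes. In fold terms JAG1 was 4.78-fold and 2.92-fold from the middle probe in mixture 1, and 1.59-fold and 1.97-fold in mixture 2.

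The mean of JAG1 was -1.90 ± 0.50 in mixture 1 and -0.82 ± 0.22 in mixture 2 (SD, n = 2 arrays each). Over both mixtures it was -1.36, with 19 of the 1152 probes more negative. Within mixture 1 alone, 30 probes were more negative. The difference between the mixtures was -1.08 (mixture 1 minus mixture 2), and it was -0.14 with the 4 arrays scaled to 1 spread. The share of probes below JAG1 was 3.47% and 5.82% in mixture 1, against 22.1% and 4.25% in mixture 2.

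The duplicate spots of JAG1 did not differ in sign: all 8 were negative, both centred and as deposited. They were 0.82 and 0.16 apart (log2) in mixture 1, and 0.99 and 0.18 apart in mixture 2. Replicate 1 of mixture 2 is the array on which JAG1 was closest to the middle, with spots at -1.16 and -0.17. That gap between spots was wider than for 91.1% of the probes on the array.

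PTCH1 lay on the negative side in mixture 1 and near the middle in mixture 2. Its log2 ratio was -1.79 and -1.42 in mixture 1, against 0.72 and -0.37 in mixture 2. The mixtures did not overlap, but the arrays of mixture 2 fell on opposite sides of the middle probe. PTCH1 was 3.46-fold and 2.68-fold from the middle in mixture 1, and 1.64-fold and 1.29-fold in mixture 2.

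The mean of PTCH1 was -1.61 ± 0.26 in mixture 1 and 0.17 ± 0.77 in mixture 2 (SD, n = 2 arrays each). In mixture 2 the spread between the arrays exceeded the mean, so no side can be given there, and the sign turned without centring (-0.31) and without replicate 1 of mixture 2 (-0.37). The difference between the mixtures was -1.78, and 21 probes had a more negative one. It lay between -1.24 and -2.32 with single arrays left out and was -1.29 with the arrays scaled to 1 spread. PTCH1 differed from JAG1 mainly in mixture 2. PTCH1 minus JAG1, which does not depend on the centring, was 0.47 and 0.12 (log2) in mixture 1, against 1.39 and 0.61 in mixture 2.

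The 4 PTCH1 spots of mixture 1 were all negative, from -2.62 to -0.96, and in mixture 2 they ran from -0.51 to 1.17. On replicate 1 of mixture 1 the 2 spots were 1.66 apart (log2), wider than for 91.1% of probes, while on replicate 2 they were 0.16 apart. The first spots alone gave a mean of -2.00 in mixture 1 and the second spots alone -1.27, so the side was the same and the size was not.

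TEAD2 lay on opposite sides in the 2 mixtures. Its log2 ratio was 1.68 and 1.49 in mixture 1, against -2.29 and -0.41 in mixture 2. Both arrays of mixture 1 were thus positive and both of mixture 2 negative, a pattern that 6.6% of all probes had. It was 3.20-fold and 2.82-fold from the middle probe in mixture 1, and 4.89-fold and 1.33-fold in mixture 2.

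The mean of TEAD2 was 1.59 ± 0.13 in mixture 1 and -1.35 ± 1.33 in mixture 2 (SD, n = 2 arrays each). The difference of 2.94 was exceeded in the positive direction by 1 other probe of the 1152. Its size rested on replicate 1 of mixture 2, on which 0.868% of probes were lower than TEAD2, against 22.7% on replicate 2. Without that array the mixture 2 value was -0.41 and the difference 2.00, and without replicate 2 of mixture 2 they were -2.29 and 3.88. The side in each mixture was the same in all 8 spots, which ran from 1.34 to 2.02 in mixture 1 and from -2.43 to -0.38 in mixture 2. The spots of TEAD2 were 0.69 and 0.11 apart (log2) in mixture 1, against 0.28 and 0.07 in mixture 2. The median probe had spots 0.347 and 0.348 apart in mixture 1, against 0.328 and 0.120 in mixture 2. The mean over both mixtures was 0.12, and its sign turned with the scaling (-0.21 without centring, -0.25 with the arrays scaled to 1 spread).

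**Figure D1:**
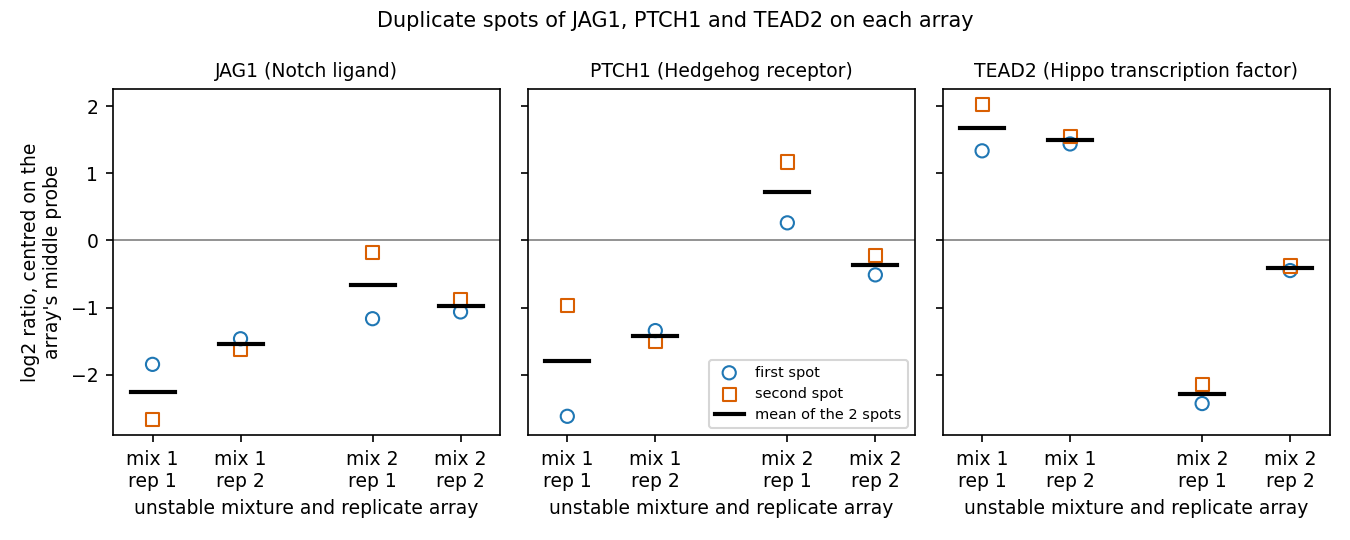
Log2 ratios (y axis, centred on the array's middle probe) of the duplicate spots of JAG1, PTCH1 and TEAD2 on each array (x axis: mixture and replicate). Open symbols are single spots and bars are the mean of the 2 spots; all 8 JAG1 spots are below 0, while TEAD2 is above 0 in mixture 1 and below 0 in mixture 2.

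Side by side, the 3 genes showed 3 arrangements of the mixtures. JAG1 was negative in both, and TEAD2 changed side. PTCH1 was negative in mixture 1, while its arrays in mixture 2 fell on opposite sides. In all 3 genes the mixtures did not overlap, as in most probes. In order from low to high, mixture 1 read JAG1 (-1.90), PTCH1 (-1.61) and TEAD2 (1.59), and mixture 2 read TEAD2 (-1.35), JAG1 (-0.82) and PTCH1 (0.17). JAG1 and PTCH1 overlapped over the arrays of mixture 1, and TEAD2 and JAG1 over those of mixture 2. TEAD2 lay 3.93 and 3.04 (log2) above JAG1 in mixture 1. TEAD2 minus JAG1 was -1.62 on replicate 1 of mixture 2 and 0.56 on replicate 2.

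**Figure D2:**
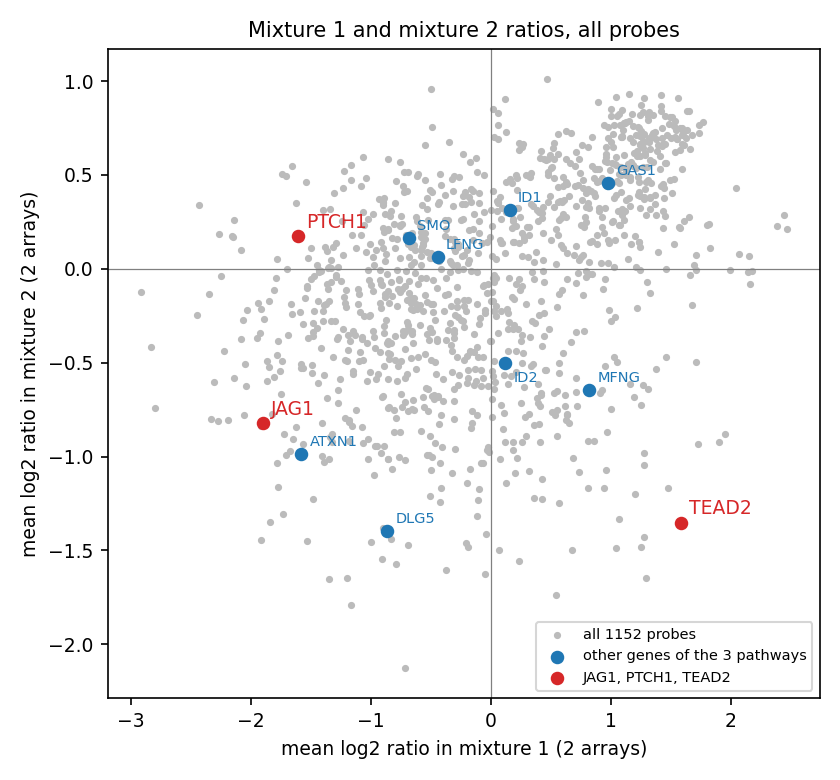
Mean log2 ratio in mixture 1 (x axis) and mixture 2 (y axis), each over 2 arrays and centred on the middle probe, for all 1152 probes (grey), with other genes of the 3 pathways in blue and JAG1, PTCH1 and TEAD2 in red. JAG1 lies at -1.90 and -0.82, PTCH1 at -1.61 and 0.17, and TEAD2, at the edge of the cloud, at 1.59 and -1.35.

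Of 258 genes listed for the 3 pathways, 8 besides these 3 could be named on a probe with 1 symbol, and the other 247 were not analysed here. These 8 genes were tested with limma, an empirical Bayes linear model fitted to all probes, with Benjamini-Hochberg adjustment over the 1152 probes and a threshold of 0.05. A fit with an array left out has 1 array for that mixture, which is assumed to vary like the other mixture. In mixture 1, 1 of the 8 passed on the positive side and 1 on the negative side, where 24.4% and 18.8% of all probes did (43.1% in all). The same 2 genes, GAS1 and ATXN1, passed in the mean of both mixtures, where 38.7% of all probes did, 21.7% with a positive and 17% with a negative value. None of the 8 passed in mixture 2 or in mixture 1 minus mixture 2, where 0% of all probes passed in limma. At an unadjusted p under 0.05 there were 2 of the 8 in mixture 2, ATXN1 and DLG5, where 226 of all 1152 probes were. In the difference there was 1 of the 8, MFNG, where 275 of the 1152 probes were. The median log2 ratio of the 8 was -0.16 in mixture 1 and -0.22 in mixture 2, against -0.03 and -0.003 over all probes.

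Among the 3 Notch genes tested, ATXN1 was the one that passed under the main processing. It encodes ataxin-1, a nuclear protein that was listed with the co-repressors. ATXN1 lay at -2.08 and -1.07 in mixture 1, and at -1.01 and -0.96 in mixture 2. All 4 arrays were negative, as for JAG1. The mean in mixture 1 was -1.58 (SE 0.331, limma adjusted p = 0.00902) and over both mixtures -1.28 (SE 0.234, limma adjusted p = 0.00906). Without replicate 1 of mixture 1, ATXN1 lay at -1.07 in mixture 1 and no longer passed (limma adjusted p = 0.0524). Its duplicate spots were 1.40 and 1.03 apart (log2) in mixture 1, against array medians of 0.347 and 0.348. It passed in mixture 1 with the first spots alone (-1.69, limma adjusted p = 0.0454), with the second spots alone (-1.53, 0.0283) and with a trend of ratios on the spot gap removed (-1.23, 0.0358).

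The 2 fringe genes encode enzymes that add sugar to Notch receptors and so alter how these respond to ligands. Neither passed in any comparison under the main processing, and they differed in their values. MFNG lay at 1.22 and 0.42 in mixture 1, and at -0.71 and -0.58 in mixture 2. It thus had the arrangement of TEAD2, positive in mixture 1 and negative in mixture 2, at a smaller size. The difference was 1.47 (SE 0.444, limma adjusted p = 0.115) and did not pass. In mixture 2 MFNG passed without centring (-1.13, limma adjusted p = 0.0389) and with arrays scaled to 1 spread (-0.97, limma adjusted p = 0.0485). In these settings 206 and 262 of the 1152 probes passed in mixture 2. LFNG lay at -0.19 and -0.69 in mixture 1, and at 0.59 and -0.47 in mixture 2, and passed in no comparison (limma adjusted p = 0.319 to 0.929). Its spots were 1.55 apart on replicate 1 of mixture 1, so even its side there differed between spots.

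In the Hedgehog pathway SMO, the transducer that Patched1 holds back, had values of the same sign as PTCH1 on each of the 4 arrays. The Notch gene LFNG had these signs too, and the share of all probes with them was not counted. SMO lay at -0.70 and -0.67 in mixture 1, and at 0.54 and -0.21 in mixture 2. SMO minus PTCH1 was 1.09 and 0.75 (log2) in mixture 1, where SMO was the closer to the middle, against -0.18 and 0.16 in mixture 2. SMO passed in no comparison: in mixture 1 its mean was -0.68 (SE 0.310, limma adjusted p = 0.105) and its difference between mixtures -0.85 (SE 0.438, limma adjusted p = 0.264). On replicate 1 of mixture 1 its spots were 1.85 apart (log2).

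GAS1, a membrane-anchored co-receptor that binds Hedgehog ligands together with Patched1, lay on the opposite side to PTCH1 and SMO in mixture 1. On replicate 1 of mixture 2 GAS1 was positive like PTCH1 and SMO, and on replicate 2 it was again opposite to them. Its log2 ratio was 0.91 and 1.03 in mixture 1, and 0.56 and 0.35 in mixture 2. The mean was 0.97 in mixture 1 (SE 0.286, limma adjusted p = 0.0246) and 0.71 over both mixtures (SE 0.202, limma adjusted p = 0.0236). All 4 arrays were positive, as for 25.8% of all probes. GAS1 minus PTCH1 was 2.70 and 2.46 (log2) in mixture 1, against -0.15 and 0.72 in mixture 2. The call on GAS1 changed with the setting. Among the 189 probes with close duplicate spots on all arrays, GAS1 included, it passed in mixture 1 and in the mean (limma adjusted p = 0.000222 and 0.000128). Of these 189 probes, 160 passed in mixture 1, 148 of them positive, and 159 in the mean, 151 of them positive. A positive call was thus common in that set. Once a trend of ratios with the gap between duplicate spots was removed, GAS1 lay at 0.41 in mixture 1 and 0.29 in the mean (limma adjusted p = 0.347 and 0.380), and without either array of mixture 1 it did not pass in mixture 1 (0.0616 and 0.0918). With either array of mixture 2 left out it did not pass in the mean (0.66 and 0.77, limma adjusted p = 0.141 and 0.0728), nor did it there without centring (0.39). The duplicate spots of GAS1 were 0.05 to 0.12 apart.

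The Hippo genes besides TEAD2 did not pass in any comparison under the main processing. DLG5, a membrane scaffold protein of cell polarity, lay at 0.66 and -2.39 in mixture 1, and at -1.71 and -1.08 in mixture 2. The replicates of mixture 1 were on opposite sides, which is the widest replicate gap among the 11 genes. Over both mixtures DLG5 lay at -1.13 (SE 0.424, limma adjusted p = 0.0622). It passed there without centring (-1.46, limma adjusted p = 0.0198) and in arrays brought to 1 spread (-1.36, limma adjusted p = 0.0153). In these settings 558 and 460 of the 1152 probes passed in the mean, 434 and 213 of them with a negative value. In mixture 2 DLG5 passed with arrays scaled (-2.01, limma adjusted p = 0.0325), where 262 of the 1152 probes did. It also passed there in a fit of that mixture's own arrays (-1.40, limma adjusted p = 0.000662), where 113 probes did. The DLG5 mean over both mixtures lay at -1.89 without replicate 1 of mixture 1, the array of opposite sign, and at -0.37 without replicate 2. Without replicate 1 or replicate 2 of mixture 2 it lay at -0.97 and -1.29. Of these 4 fits, each with 1 mixture reduced to a single array, all but the one without replicate 2 of mixture 1 put DLG5 past the threshold. ID1 and ID2 are inhibitors of helix-loop-helix factors and were listed as targets. ID1 lay at 0.29 and 0.02 in mixture 1, and at 0.28 and 0.35 in mixture 2. ID2 lay at 0.39 and -0.15 in mixture 1, and at -0.71 and -0.29 in mixture 2. Neither passed in any comparison (limma adjusted p = 0.358 to 0.817).

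Values near the middle depend on where the middle is put. The medians subtracted were -0.12 and -0.22 in mixture 1, and -0.44 and -0.53 in mixture 2. As deposited, without centring, the mixture 2 means of PTCH1 (-0.31), SMO (-0.32), LFNG (-0.42), GAS1 (-0.03) and ID1 (-0.17) were negative, and so were the mixture 1 means of ID1 (-0.01) and ID2 (-0.05). JAG1, ATXN1, DLG5, MFNG and TEAD2 kept their side in both mixtures, with JAG1 at -2.07 in mixture 1 and -1.31 in mixture 2 and TEAD2 at 1.42 and -1.84.

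**Figure D3:**
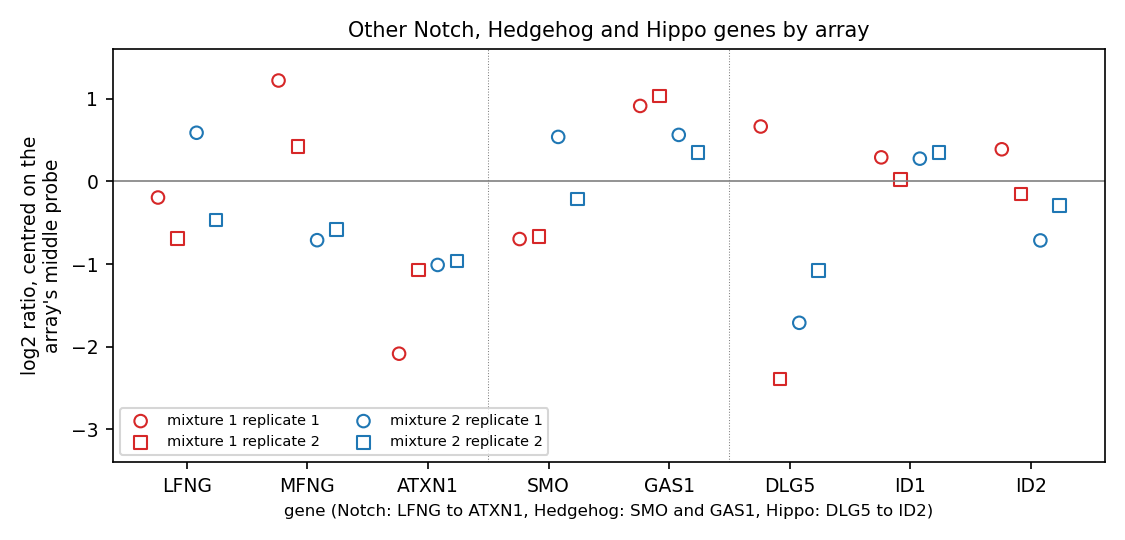
Log2 ratio (y axis, centred on the array's middle probe) of 8 other genes of the 3 pathways (x axis) on each array; red is mixture 1, blue is mixture 2, circles are replicate 1 and squares replicate 2. ATXN1 is negative and GAS1 positive on all 4 arrays, MFNG is positive in mixture 1 and negative in mixture 2, and the DLG5 replicates of mixture 1 lie at 0.66 and -2.39.

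For each of the 3 genes, the 3 named genes with the most similar values were found by the root mean square difference of the log2 ratio over the 4 arrays. The median of this measure over all probes was 1.54 for JAG1, 1.36 for PTCH1 and 1.73 for TEAD2. Nearest to JAG1 were ATXN1 (0.303), the sulfate transporter gene SLC26A2 (0.371) and ADD3, which encodes a protein of the membrane skeleton (0.383). SLC26A2 lay at -2.62 and -1.55 in mixture 1, and at -0.31 and -0.44 in mixture 2, so it was closer to the middle than JAG1 in mixture 2. ADD3 lay at -2.13 and -1.71 in mixture 1, and at -0.38 and -0.30 in mixture 2.

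Nearest to PTCH1 were PIAS2 (0.241), which encodes a SUMO ligase, the zinc finger gene ZMYM2 (0.259) and TAF1B of the RNA polymerase I machinery (0.279). PIAS2 lay at -1.69 and -1.04 in mixture 1, and at 0.46 and -0.27 in mixture 2. Like PTCH1, both PIAS2 and ZMYM2 were positive on replicate 1 and negative on replicate 2 of mixture 2. TAF1B was positive on both, at 0.67 and 0.03.

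Nearest to TEAD2 were RBBP4 (0.330), a histone-binding protein of chromatin complexes, KISS1 (0.340), the precursor of kisspeptin, and the zinc finger gene ZNF135 (0.398). No probe, named or unnamed, was nearer to TEAD2 than RBBP4. In mixture 1 RBBP4 lay at 1.23 and 1.37, and KISS1 lay at 1.09 and 1.41. In mixture 2 RBBP4 lay at -2.73 and -0.57, KISS1 at -2.22 and -0.74, and ZNF135 at -1.52 and -0.34. All 3 share with TEAD2 the gap between the replicates of mixture 2, with replicate 1 much the lower. With 4 arrays, and RT210B on each of them, a likeness of this kind says only that the genes had close values on these arrays.

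**Figure D4:**
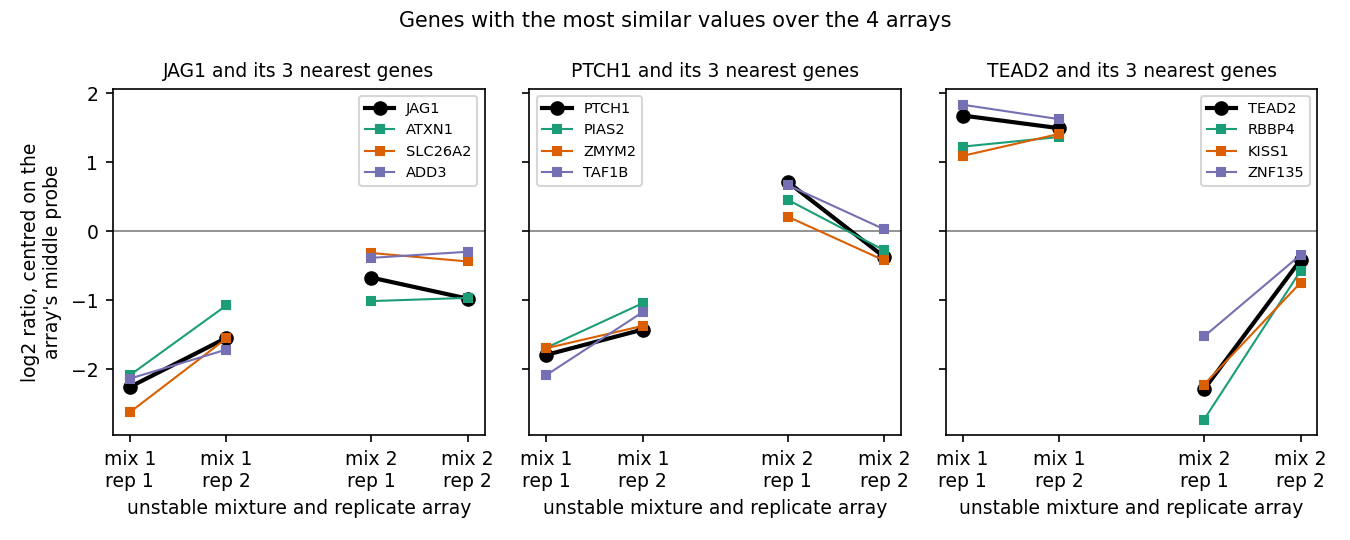
Log2 ratio (y axis, centred on the array's middle probe) on each array (x axis: mixture and replicate) of JAG1, PTCH1 and TEAD2 (black) and the 3 named genes nearest to each (coloured), with lines joining the replicates of a mixture. TEAD2, RBBP4, KISS1 and ZNF135 all lie above 0 in mixture 1 and are lower on replicate 1 than on replicate 2 of mixture 2.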

How the data were processed

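The authors deposited log2 ratios between the channels of each array, 1 value for each of 2304 spots. Undoing the logarithm of the deposited values (sign left aside) gave ratios of 2 decimals at 100% of spots, within 0.001. Per the labels' descriptions, normalization factors of 3.8 (mixture 1 replicate 2) and 1.169 (mixture 2 replicate 1) were used. The sources used here do not give what they were applied to, nor the dyes, scanner or background correction. Mixtures and replicate numbers came from the sample titles, and since no label says that replicates were separate cultures, p-values reflect array-to-array spread alone, and that spread may be technical.

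Adjacent spots were averaged to 1152 probes, a pairing inferred from the annotation (spot r 0.725 to 0.819 in pairs, 0.003 to 0.074 between unpaired neighbours). GEO's platform annotation gave 1 symbol for 350 probes and several for 8, and 794 are unnamed here. Each array was centred on its median. limma 3.58.1 in R 4.3.3 (lmFit and eBayes, 1 mean per mixture, 4 arrays, 2 residual and 6.69 prior degrees of freedom) was tested on simulated data first. Precision is limited by having 4 arrays, with a median SE over probes of 0.313 (log2) in a mixture. RT210B entered as 1 control on every array, which leaves out its own spread.

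The 3 genes, the pathway lists and the alternatives were chosen with earlier results of these data known. Named were the 3 genes, every list gene on a probe with 1 symbol, and the 3 nearest named genes of each. Alternatives were no centring, arrays scaled to 1 spread, each spot alone, the trend on the duplicate difference removed, close duplicate spots only, a replicate block, single mixtures and arrays left out. Of the 8 other list genes, 7 had a Chinese hamster gene of that symbol in RefSeq (assembly CriGri-PICRH-1.0). No coordinates or sequences are given, since no build or probe sequence goes with the values.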

Additional observations from a re-analysis of the deposited data

Results flagged for a closer look

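TEAD2 and MFNG were positive on both arrays of mixture 1 and negative on both arrays of mixture 2. The difference, mixture 1 minus mixture 2, was 2.94 for TEAD2, which was not tested because the gene was picked for its values on these arrays. It was 1.47 for MFNG, which did not pass in limma (adjusted p = 0.115). The MFNG difference was 1.07 without replicate 1 of mixture 1 and 1.87 without replicate 2. In these fits mixture 1 rests on 1 array, with MFNG at 0.42 and 1.22. In all, 133 of 1152 probes (11.5%) lay on opposite sides in the mixtures, 76 of them positive in mixture 1.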

How the results depend on the processing

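JAG1 was negative under each alternative listed for it in mixture 1, mixture 2, their mean and their difference, as was PTCH1 in mixture 1, the mean and the difference, and TEAD2 had 1 sign in each mixture and in the difference. Values that turned sign or moved by more than the spread between replicates follow; the cause was not tested. The turns of PTCH1 in mixture 2 and of TEAD2 in the mean were smaller than that spread. Without centring JAG1 lay at -1.31 in mixture 2, TEAD2 turned to -0.21 in the mean, PTCH1 turned to -0.31 in mixture 2, and TEAD2 lay at 1.42 in mixture 1. With arrays scaled to 1 spread JAG1 lay at -1.31 in mixture 2 and -0.14 in the difference, PTCH1 at -1.23 in mixture 1, and TEAD2 at 1.22 in mixture 1 and -0.25 in the mean. With the first spot alone JAG1 lay at -1.09 in mixture 2 and -0.58 in the difference, PTCH1 at -2.00 in mixture 1 and -0.10 in mixture 2, and TEAD2 at 1.36 in mixture 1 and -0.027 in the mean. With the second spot alone the JAG1 difference was -1.57, PTCH1 lay at -1.27 and TEAD2 at 1.75 in mixture 1. With the spot difference trend removed JAG1 lay at -0.59 in mixture 2. With arrays left out, PTCH1 ranged from -0.37 to 0.72 in mixture 2 and TEAD2 from -0.35 to 0.59 in the mean.

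Of the 8 other genes, 2 passed in mixture 1. With arrays scaled, the second spot alone or the trend removed 1 did, as did 1 (GAS1) among the 189 probes with close duplicate spots, which do not include ATXN1. With an array of mixture 1 left out, the genes that passed there changed. Mixture 1 rests on 1 array in these fits, and the values that follow include genes that did not pass. Without replicate 1, DLG5 lay at -2.39, ATXN1 at -1.07 and GAS1 at 1.03. Without replicate 2, MFNG lay at 1.22, ATXN1 at -2.08 and GAS1 at 0.91. In mixture 2, where 0 passed, 2 did without centring, 3 with arrays scaled and 2 in a fit of its own arrays. In the mean, where 2 passed, 1 did with the second spot alone, the trend removed or close spots only, and 3 with arrays scaled. The genes that passed in the mean changed with an array of mixture 2 left out. There GAS1 lay at 0.66 without replicate 1 and 0.77 without replicate 2, and DLG5 at -0.97 and -1.29. In the difference 0 to 2 passed with arrays left out. Over all probes, 497 passed in mixture 1, against 231 with arrays scaled, 220 with the trend removed and 160 of the 189 tested with close spots only. In mixture 2, 0 passed (226 at an unadjusted p under 0.05), against 206 without centring, 262 with arrays scaled, 83 of 189 with close spots only, 113 in a fit of its own arrays and 0 to 33 with an array left out. In the mean, 446 passed, against 123 with the trend removed, 159 of 189 with close spots only and 219 to 505 with arrays left out. In the difference, 0 passed (275 unadjusted), against 47 without centring, 20 of 189 with close spots only and 0 to 213 with arrays left out. With the replicate number as a block, 36 probes passed in the difference and DLG5 passed in the mean (limma adjusted p = 0.0202). Deviations of same-numbered arrays from the mean of their mixture correlated over probes at r = -0.10. This cannot show whether same-numbered arrays shared a batch, which was not tested. Of 308 alternative values of the 8 genes, 280 kept their side of the threshold, 11 lost and 17 gained a call. Signal over background is unknown, so what dim spots limit cannot be given.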
